A study of Mus musculus with 2 samples.

Results

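Ifit1, Ifit2, Ifit3, Ifit3b, Isg15 and Rsad2 are 6 early interferon-induced antiviral genes among the 31053 genes counted in single immune cells sorted from the mouse retina. They were listed by name, with earlier results of these same libraries in view, so their levels and their difference between the libraries are given as a description, without a test. They were followed in 2379 of 2695 kept cells of a library labelled wildtype and in 1501 of 1761 of a library labelled Igfbpl1 knockout, those that passed a marker gate for microglia. They were also followed in the other cell classes of both libraries.

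Type I interferon binds its receptor and, through the JAK kinases, activates a complex of STAT proteins and IRF9 that binds interferon-stimulated response elements in gene promoters. The genes studied here are among the first to be transcribed, and some can also be switched on directly by interferon regulatory factors downstream of nucleic acid sensors. In the brain and retina, small numbers of microglia with high levels of such genes are a known state of the resident macrophage. IFIT proteins bind viral RNA or translation factors, ISG15 is a ubiquitin-like protein that is attached to other proteins or released, and RSAD2 (viperin) is a radical SAM enzyme that makes a chain-terminating nucleotide.

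Cells came from the perfused retinas of C57BL/6 mice, either Igfbpl1-/- or wildtype, and were stained for CD45, a surface protein of leukocytes and microglia, and sorted. For the study as a whole, the design text gives 10 mice of each genotype, matched by sex and 8 to 10 months old. The labels give no number of mice per library and no deleted part of the allele, and no cell can be traced to a mouse. Transcripts were captured at their 3′ end and counted as unique molecular identifiers (UMIs), with 1 library per group.

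No replicate check was possible: differences are between these 2 libraries, and every interval is 95% and covers counting error only. The targeted gene went against the labels, with 2 Igfbpl1 counts under the wildtype label and 29 under the knockout label (0.181 and 3.65 CPM, counts per 1000000 counted). Groups are therefore named by their labels throughout. The tables held 2735 and 1785 barcodes with 11020717 and 7945713 UMIs, 1 barcode occurred in both, and the median depth of the gated microglia was 3984 and 4376 UMIs. The gated cells carried microglial transcripts: C1qa was counted in 99.9% of them in both libraries, and P2ry12 in 93.1% and 89.6%. Mrc1 of border macrophages was counted in 0.715% and 1.87%. No doublet caller was run; cells with 3 or more markers of another class beside 3 of microglia (57 and 42) were kept apart.

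The 4 Ifit genes lie together on chromosome 19 of GRCm38, all on the plus strand: Ifit2 (34550694 to 34576419, 3 exons), Ifit3 (34583531 to 34588731, 2 exons), Ifit3b (34607970 to 34613401, 2 exons) and Ifit1 (34640871 to 34650009, 2 exons). Isg15 (156199424 to 156200818, 2 exons) lies on the minus strand of chromosome 4. Rsad2 (26442746 to 26456452, 6 exons) lies on the minus strand of chromosome 12, beside Cmpk2. Upstream sequences are shown because 5 of the 6 genes share the letters of an interferon-stimulated response element there. The motif searched was GAAANNGAAA, read as TTTCNNTTTC on the other strand, with overlapping matches counted, in the 250 bases before the RefSeq start. Windows are from RefSeq on GRCm38.p6, 5′ to 3′ on the gene's strand, ending 41 bases before the start, with every match in capitals:

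Isg15, chr4:156200859-156201018, minus strand: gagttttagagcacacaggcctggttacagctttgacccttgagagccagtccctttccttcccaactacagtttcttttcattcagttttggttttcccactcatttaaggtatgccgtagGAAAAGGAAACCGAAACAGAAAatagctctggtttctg
Rsad2, chr12:26456493-26456652, minus strand: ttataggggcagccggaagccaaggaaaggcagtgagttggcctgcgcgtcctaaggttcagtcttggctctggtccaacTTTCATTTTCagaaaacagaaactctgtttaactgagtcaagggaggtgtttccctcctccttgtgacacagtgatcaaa
Ifit1, chr19:34640749-34640848, plus strand: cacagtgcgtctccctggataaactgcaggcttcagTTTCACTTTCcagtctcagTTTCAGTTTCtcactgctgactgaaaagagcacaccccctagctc
Ifit3, chr19:34583329-34583488, plus strand: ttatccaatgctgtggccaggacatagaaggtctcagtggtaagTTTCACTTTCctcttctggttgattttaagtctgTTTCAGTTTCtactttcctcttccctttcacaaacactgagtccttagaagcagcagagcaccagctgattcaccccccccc
Ifit3b, chr19:34607757-34607916, plus strand: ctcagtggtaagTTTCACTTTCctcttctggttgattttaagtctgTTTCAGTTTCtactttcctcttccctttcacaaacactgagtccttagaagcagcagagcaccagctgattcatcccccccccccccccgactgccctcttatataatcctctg

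Isg15 held 3 matches, each overlapping the next, which read as 1 run of capitals 78 to 57 bases before its start. Ifit1, Ifit3 and Ifit3b each held 2 matches, the same pair of 10-letter words in the same order (TTTCACTTTC, then TTTCAGTTTC), at 104 and 85, 156 and 122, and 188 and 154 bases before their starts. Rsad2 held 1 match, 120 bases before its start. Ifit2 had no match in either of its RefSeq windows, which says only that these letters are not in those windows. Over all genes the motif was rare: 936 of 27025 genes with a window held it (3.46%), and 59 of 32851 windows held 2 or more (0.180%). Among genes of the same response it was held by 12 of 27 antiviral effectors and 8 of 9 interferon-induced GTPases, but by 0 of 4 ISG15 pathway genes, 2 of 9 STAT and IRF factors, 1 of 7 nucleic acid sensors and 1 of 8 MHC class I genes. Among controls it was held by 0 of 10 immediate early genes and 0 of 9 inflammatory genes. A match of letters is a description and not a binding site.

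In microglia all 6 genes stood at a lower level under the knockout label. Isg15, the ubiquitin-like protein, had 1175 counts (118.4 CPM) under the wildtype label and 595 (87.4 CPM) under the knockout label, a ratio of 0.738 (0.668 to 0.815), the ratio nearest to 1 among the 6. Rsad2, the viperin gene, had 317 counts (31.9 CPM) and 86 (12.6 CPM), a ratio of 0.396 (0.308 to 0.503). Ifit2, which binds AU-rich RNA, had 695 counts (70.0 CPM) and 194 (28.5 CPM), a ratio of 0.407 (0.345 to 0.478). Both were at least 2-fold lower under the knockout label.

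Ifit1, which binds RNA lacking the host's cap methylation, had 237 counts (23.9 CPM) and 105 (15.4 CPM), a ratio of 0.646 (0.508 to 0.816). Ifit3, which partners other IFIT proteins, had 1232 counts (124.1 CPM) and 548 (80.5 CPM), a ratio of 0.648 (0.585 to 0.718). Ifit3b, its near copy, stood at 27.2 and 16.4 CPM, a ratio of 0.605 (0.481 to 0.757). Ifit3 and Ifit3b are uncertain as separate genes: their transcripts were 98.0% identical over 1697 aligned bases, and 35.1% of the 90-base stretches of Ifit3 also occur in Ifit3b, so counting could have split or dropped their reads. The interval of Ifit2 overlapped that of Rsad2 alone, and that of Rsad2 also overlapped Ifit3b. CPM values are of 3′ tags of genes with transcripts of unlike length, so levels are compared between libraries and not between genes.

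Summed over the 6 genes, microglia held 3926 counts (395.5 CPM) and 1640 (240.9 CPM), a log2 ratio of -0.72 (-0.80 to -0.63). All 6 genes reached 10 CPM in 1 library, as did 8268 genes in all, and 5 of the 6 were at least 1.5-fold lower, against 1.67% of the genes measured. At least 2-fold lower were 2 of the 6, against 0.278%. With equal weight per cell, Ifit2 (log2 ratio -1.10) and Rsad2 (-1.17) stayed at least 1.5-fold lower, while Ifit1 (-0.40), Ifit3 (-0.31) and Ifit3b (-0.10) did not. Ifit1 was at least 1.5-fold lower in 7 of 12 alternatives. The median log2 ratio was -0.68 for the 6 genes and -0.03 for all genes measured. These counts are no evidence about the genes, which were listed with the ratios known.

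**Figure D1:**
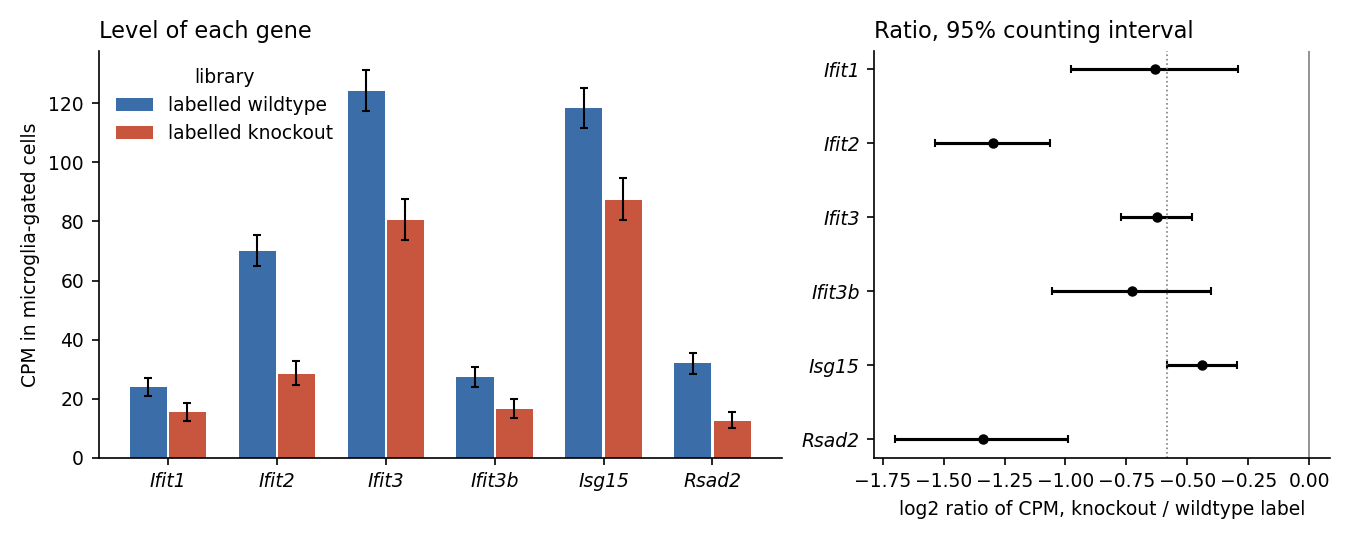
Left, CPM in microglia-gated cells for each of the 6 genes (bars start at 0, lines are 95% Poisson intervals) under the wildtype label (blue) and the knockout label (red). Right, log2 ratio of knockout over wildtype label with its 95% counting interval and a dotted line at 1.5-fold lower; all 6 points lie below 0, Rsad2 and Ifit2 lowest.

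The level came from few cells, and those cells differed between the libraries more than the number of cells with any UMI did. Any of the 6 genes was counted in 676 microglia (28.4%) under the wildtype label and in 494 (32.9%) under the knockout label. After each cell was thinned to 1000 UMIs, which left out 30 and 24 shallower cells, any was counted in 308 of 2349 cells (13.1%, 11.8 to 14.5) and 214 of 1477 (14.5%, 12.7 to 16.4). The share of microglia with any of these transcripts was thus not lower under the knockout label, while the mean summed UMIs per positive cell was 5.81 under the wildtype label and 3.32 under the knockout label. The median per positive cell went the other way, at 1 and 2 UMIs. From all UMIs, exactly 1 summed UMI was held by 54.1% and 44.9% of positive cells. The lower mean is thus no statement about the typical positive cell.

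Ifit3 was counted in 304 cells (12.8%) and 243 (16.2%), with means of 4.05 and 2.26 UMIs per positive cell and maxima of 55 and 22. Isg15 was counted in 388 cells (16.3%) and 283 (18.9%), with means of 3.03 and 2.10 UMIs and maxima of 45 and 20. From all UMIs, the share of positive cells for these genes was larger under the knockout label, whose cells were deeper, and the mean per positive cell was smaller. Ifit1 was counted in 4.29% and 5.0% of cells, with means of 2.32 and 1.40 and maxima of 22 and 5. Ifit3b was counted in 96 cells (4.04%) and 86 (5.73%), with means of 2.81 and 1.30 and maxima of 17 and 6. Both genes, like Ifit3 and Isg15, had a larger positive share from all UMIs and a lower maximum under the knockout label.

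Ifit2 and Rsad2, the genes with the lowest ratios, were also counted in a smaller share of cells. Ifit2 was counted in 222 cells (9.33%) and 117 (7.79%), with means of 3.13 and 1.66 UMIs and maxima of 27 and 8. Rsad2 was counted in 109 cells (4.58%) and 55 (3.66%), with means of 2.91 and 1.56 UMIs and maxima of 36 and 5. On thinned cells the share with Ifit2 was 4.56% and 2.51%, and with Rsad2 1.96% and 1.08%. The thinned shares of the other genes lay closer together: 1.49% and 1.22% for Ifit1, 5.75% and 6.30% for Ifit3, 1.83% and 1.56% for Ifit3b, and 6.98% and 6.30% for Isg15.

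Most positive cells held a single UMI of a gene, except for Rsad2 under the wildtype label. Under the wildtype label exactly 1 UMI was found in 61 of the cells with Ifit1 (59.8%), 117 of 222 with Ifit2, 174 of 304 with Ifit3, 49 of 96 with Ifit3b, 223 of 388 with Isg15 and 53 of 109 with Rsad2. Under the knockout label it was found in 55 of 75 cells with Ifit1, 81 of 117, 137 of 243, 69 of 86, 172 of 283 and 34 of 55 cells, in the same order of genes. At the other end, 5 or more UMIs were found in 13 cells and 1 cell for Ifit1, 44 and 8 for Ifit2, 59 and 27 for Ifit3, 14 and 1 for Ifit3b, 59 and 23 for Isg15, and 17 and 1 for Rsad2. The variance of the summed counts was 40.6 and 8.70 times their mean, and 1.68 to 15.2 times for single genes. Counts in 1 cell are therefore not independent draws, and the counting intervals are too narrow as a guide to the cells.

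Cells with 20 or more summed UMIs numbered 49 under the wildtype label (2.06%) and 9 under the knockout label (0.600%), and held 60.2% and 15.4% of all counts of the 6 genes. Cells with 5 or more numbered 136 (5.72%) and 96 (6.40%), and cells with 2 or more 310 and 272. With 50 or more there were 17 cells and 1 cell, and with 100 or more 3 cells and none (a limit of 0.200% of 1501). On thinned cells, 2 or more summed UMIs were found in 118 and 65 cells, 5 or more in 51 (2.17%, 1.62 to 2.84) and 12 (0.812%, 0.420 to 1.41), and 10 or more in 20 (0.851%) and none (a limit of 0.203% of 1477). Without cells in which 3 or more of the genes were counted, the summed log2 ratio in microglia was 0.33 in place of -0.72, and without the top 1% of cells it was -0.27. Both ways of leaving out cells use the counts of the 6 genes themselves.

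**Figure D2:**
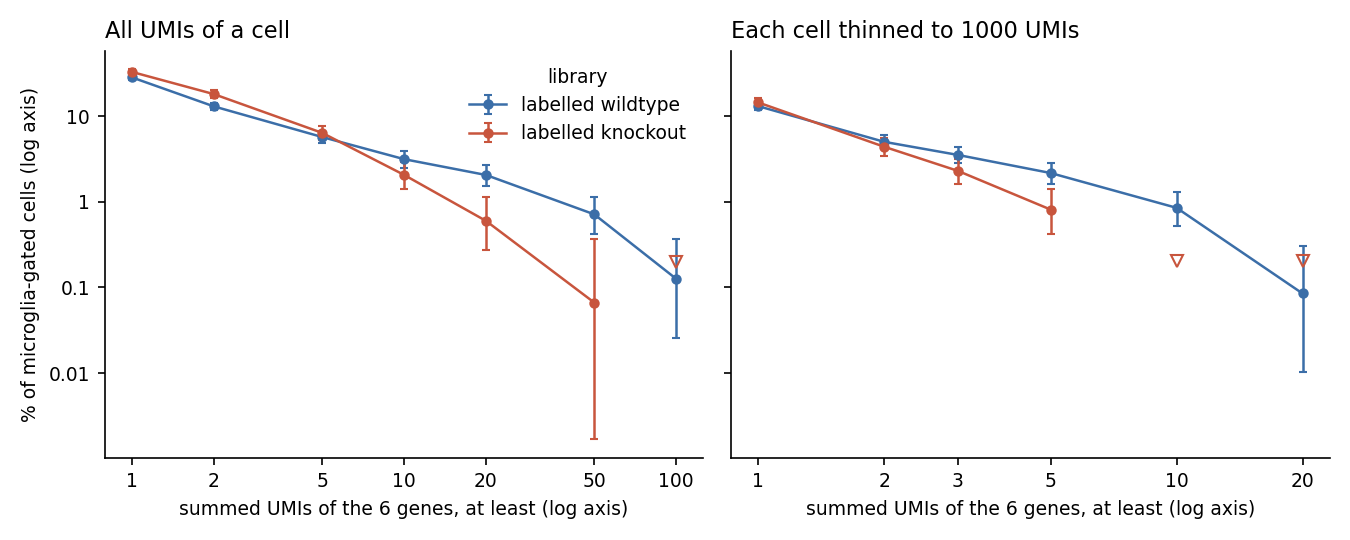
Percentage of microglia-gated cells (log axis) with at least the given summed UMIs of the 6 genes (log axis), from all UMIs (left) and after thinning to 1000 UMIs (right), with 95% exact intervals; open triangles give the limit that a count of 0 allows. From all UMIs the knockout label lies above at 2 UMIs (272 of 1501 cells against 310 of 2379) and below at 20 (0.600% against 2.06%); on thinned cells it lies below at 5 UMIs (0.812% against 2.17%).

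The most extreme cell under the wildtype label held 143 UMIs of the 6 genes among 7198 (22 of Ifit1, 6 of Ifit2, 55 of Ifit3, 16 of Ifit3b, 24 of Isg15 and 20 of Rsad2). The next held 142 among 6561, in other proportions (4, 27, 37, 17, 21 and 36 in the same order). The most extreme cell under the knockout label held 50 among 7105 (5, 5, 22, 2, 11 and 5). Every one of the 6 genes was counted in all 3 cells.

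The top 1% of microglia by a gene's own counts, 24 and 16 cells, held 58.6% and 40% of the Ifit1 counts, 44.9% and 36.6% of Ifit2, 46.3% and 26.6% of Ifit3, 62.2% and 36.6% of Ifit3b, 38.7% and 27.2% of Isg15, and 60.6% and 48.8% of Rsad2. The median over the 6 genes was 52.5% and 36.6%. Genes of levels between the lowest and the highest of the 6 had a median of 12.9% (4286 genes) and 16.9% (5670 genes), and a 90th percentile of 18.4% and 25.4%. They were not matched by level to each of the 6. Genes low in the range can have larger shares, as Fzd7 did under the knockout label (34.1% at 12.9 CPM). A top 1% share at or above the lowest of the 6 was reached by 27 of those 4286 genes under the wildtype label and by 429 of 5670 under the knockout label. All of these counts include the 6 genes themselves. For the summed counts, the top 1% held 43.0% and 22.3%, and 50% of the counts were reached with 32 and 69 cells.

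Detection of 1 gene went with detection of the others in both libraries. Of thinned cells with Ifit3b, 83.7% (36 of 43) and 56.5% (13 of 23) also held another of the 6, against 11.5% and 13.1% of cells without Ifit3b. The shares were 82.9% and 44.4% in cells with Ifit1, 71.7% and 56.2% with Rsad2, 61.5% and 35.5% with Ifit3, 59.8% and 43.2% with Ifit2, and 46.3% and 33.3% with Isg15. In cells without the named gene they were 6.59% to 13.6%. Ifit3 and Isg15 make the point with most cells: Isg15 was counted in 46.7% and 26.9% of thinned cells with Ifit3, and in 4.56% and 4.91% of those without. Co-detection of Ifit3 with its near copy Ifit3b is uncertain, since their reads could have been split or dropped.

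At this fixed depth, co-detection was more frequent under the wildtype label for each of the 6 genes. From all UMIs this order did not hold: the shares with another of the 6 were 62.2% and 67.9% in cells with Ifit3, 65.3% and 74.4% with Ifit2, 48.5% and 55.1% with Isg15 and 78.4% and 80.0% with Ifit1, and higher under the wildtype label for Ifit3b (88.5% and 75.6%) and Rsad2 (78.9% and 76.4%).

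**Figure D3:**
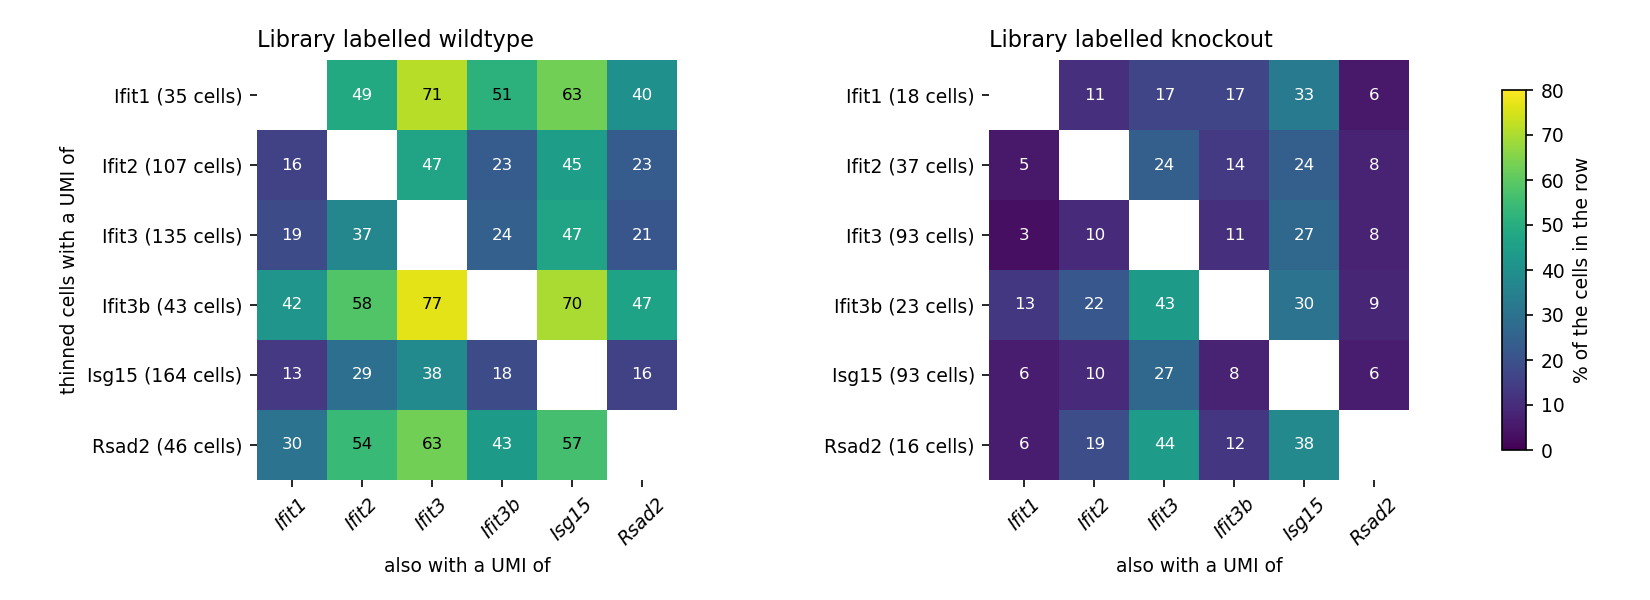
Percentage of thinned microglia-gated cells with a UMI of the gene on the vertical axis (number of cells in brackets) that also held a UMI of the gene on the horizontal axis, under the wildtype label (left) and the knockout label (right). All off-diagonal values were higher under the wildtype label. Ifit3 in cells with Ifit3b, its near copy, was 76.7% and 43.5%.

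From all UMIs, 3 or more of the 6 genes were counted in 132 microglia under the wildtype label (5.55%, 4.66 to 6.55) and 93 under the knockout label (6.20%, 5.03 to 7.54), which held 77.4% and 53.2% of the counts. The intervals of these shares overlapped, while the median summed UMIs in such cells were 12 and 7. All 6 genes were counted in 33 cells and 5 cells, with medians of 49 and 10 summed UMIs. Cells with 1 or 2 of the genes numbered 544 (22.9%, 21.2 to 24.6) and 401 (26.7%, 24.5 to 29.0), and held 344.6 and 352.1 CPM of the 6 genes. After thinning, 3 or more genes were counted in 58 cells (2.47%, 1.88 to 3.18) and 14 cells (0.948%, 0.519 to 1.59), and all 6 in 8 cells and none.

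Outside the microglia gate, 3 or more of the genes were also counted in 5 of 43 and 7 of 36 cells gated as Müller glia or astrocytes. These are larger shares than the 5.55% and 6.20% of microglia, from few cells of greater median depth (4806 and 5793.5 UMIs, against 3984 and 4376). The cells with 3 or more of the genes described here were taken from within the microglia gate only. Their median number of microglia markers was 7 and 8 of 9, against 7 in cells with none, and their median depth was 5228 and 4757 UMIs, against 3820 and 4058. The median share of mitochondrial counts was 1.13% and 1.25% against 1.16% and 1.39%. In the cells with 20 or more summed UMIs, P2ry12 stood at 927 and 1379 CPM, against 1742 and 1667 CPM in cells with none. Of the 49 and 9 such cells, 1 and 0 held 2 markers of another class. Depth moved with detection in both libraries, and its part in these counts was not tested beyond the thinned values.

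Genes that were higher in cells with 3 or more of the 6 than in cells with none, by at least 1.5-fold in both libraries, made up 4.37% of the 3179 other genes compared. Antiviral effectors were nearly all among them, 27 of 28; the exception was Ifitm2, at 2.07-fold and 0.948-fold. Ranked by the lower of the ratios in the libraries, the 5 highest of all compared genes were Ifi206 and Ifi213, of the PYHIN family of nucleic acid sensors, Oasl1 and Oasl2, relatives of the OAS enzymes, and Zbp1, a Z-nucleic acid sensor. Ifi213 stood at 28.1-fold and 29.7-fold, Oasl1 at 47.3-fold and 21.8-fold, Oasl2 at 28.0-fold and 16.4-fold and Zbp1 at 25.9-fold and 15.8-fold, under the wildtype and knockout label, with Ifi206 above them under both labels. The ISG15 machinery was higher in 4 of 4 genes, among them the deconjugating protease Usp18 at 30.4-fold and 8.60-fold and the E3 ligase Herc6 at 8.31-fold and 6.27-fold. Of the transcription factors 3 of 9 were higher, among them Irf7 at 24.9-fold and 9.38-fold and Stat2 at 10.4-fold and 5.99-fold.

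Nucleic acid sensors were higher in 6 of 9 genes, with the RNA helicases Ddx58 at 7.11-fold and 3.77-fold and Ifih1 at 6.13-fold and 3.24-fold. The interferon receptors and kinases were higher in 0 of 5, immediate early genes in 0 of 11, inflammatory genes in 0 of 11 and MHC class I genes in 1 of 9. Among the 5 lowest genes in these cells, which lay nearer to 1, were Msrb2 at 0.608 and 0.567, Crot at 0.616 and 0.623, Cbfa2t3 at 0.469 and 0.632, and Idh2 at 0.639 and 0.614. In all, 0.409% of genes were at least 1.5-fold lower in both libraries. Cells were picked here by the 6 genes themselves, so these values describe which transcripts came with them.

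The 10 genes most like the summed 6 across single microglia, by the lower of the Pearson correlations in the libraries (2379 and 1501 cells, 7777 genes), included Rtp4 (0.514 and 0.438), Oasl2 (0.506 and 0.423), Irf7 (0.516 and 0.421), Ifitm3 (0.422 and 0.385), Zbp1 (0.410 and 0.382), Ifi204 (0.483 and 0.379), Slfn5 (0.470 and 0.377), Phf11d (0.387 and 0.336) and Bst2 (0.329 and 0.358). Cells of a library share its depth and free RNA. None of the 10 was 1.5-fold lower under the knockout label: their ratios ran from 0.865 for Irf7 to 1.33 for Rtp4. The top 1% of cells held 20.2% and 12.9% of the Rtp4 counts and 11.1% and 9.18% of the Bst2 counts, less than for any of the 6, and 39.2% and 26.9% of the Zbp1 counts, a share within the range of the 6.

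The other genes of the pathway were followed from ligand to effector. The ligand Ifnb1 had 63 counts in 27 microglia (1.13%, 0.749 to 1.65) under the wildtype label and 16 in 4 (0.266%, 0.0727 to 0.681) under the knockout label, a ratio of 0.370 (0.200 to 0.649), and none in other kept cells. Of the 27 and 4 cells with Ifnb1, 14 and 1 held a UMI of any of the 6 genes. The 2 cells with most UMIs of the 6 under the wildtype label, at 143 and 142, held 4 and 5 UMIs of Ifnb1. None of the 8 interferon ligand genes reached 10 CPM.

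Receptors and kinases differed by less than 1.5-fold in 7 of 7 genes (median log2 ratio -0.03), from Ifngr1 at 0.909 to Tyk2 at 1.12. The STAT and IRF factors did so in 10 of 10 (median 0.11): Stat2 stood at 1.23, Irf7 at 0.865, Irf8, the most abundant, at 1.02 and Irf1 at 0.768. Sensors did so in 11 of 11 (median 0.03), from Ifih1 at 0.753 to Mavs, the mitochondrial adaptor, at 1.27. The ISG15 pathway did so in 5 of 5 (median 0.01), with Uba7, the activating enzyme, at 1.12 and Usp18 at 0.894. Isg15 itself stood at 0.738, below the 5 genes whose products attach or remove it (0.894 to 1.12).

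Of 29 antiviral effectors at 10 CPM or more, 1 was at least 1.5-fold lower, Oasl1 (195 and 53 counts, ratio 0.396, 0.287 to 0.539), which restrains translation of Irf7. The share among all genes was 1.67%. At least 1.5-fold higher were 2, against 1.25% of all genes: Lgals3bp (1985 and 2109 counts, ratio 1.55, 1.46 to 1.65) and Ifi27l2a (564.4 and 863.1 CPM, ratio 1.53, 1.47 to 1.59). The list's median log2 ratio was 0.08, above 0 where that of the 6 genes was below it. The interferon-induced GTPases at 10 CPM or more had 0 of 5 past 1.5-fold (median -0.14), from Gbp3 at 0.797 to Gbp7 at 1.06, with Irgm1 at 0.887. GTPases under 10 CPM in both libraries had lower ratios. These ran from Iigp1 at 0.298 (93 and 19 counts, 0.172 to 0.492) to Tgtp2 at 0.761 (23 and 12 counts, 0.345 to 1.59), with Ifi47 at 0.576 (0.376 to 0.867). Antiviral effectors counted under 10 CPM in both libraries did not share this direction. Higher were Ifi203 at 2.38 (1.48 to 3.89), Oas1g at 2.01 (1.22 to 3.36) and Oas2 at 1.68 (1.17 to 2.42). The intervals of Oas3 at 1.17 (0.653 to 2.06) and Ifi44 at 0.897 (0.450 to 1.74) included 1. MHC class I had 0 of 9 past 1.5-fold, from H2-D1, the most abundant, at 0.895 to Tap2 at 1.17.

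Of the interferon-induced chemokines, which draw leukocytes, 4 of 5 were at least 1.5-fold lower (median -0.77), against 1.67% of all genes, in a list chosen with results of these libraries known: Ccl5 stood at 0.233, Cxcl10 at 0.289, Ccl12 at 0.585 and Ccl7 at 0.622. Ccl2 stood at 0.816. In the cells with 20 or more summed UMIs (49 and 9), Cxcl10 stood at 3931 and 1179 CPM and Ccl12 at 10841 and 8272 CPM. In cells with none of the 6, Cxcl10 stood at 159.6 and 68.6 CPM and Ccl12 at 645.0 and 486.0 CPM. Under the knockout label 1 of the 9 cells held 55 UMIs of Cxcl10 and 209 of Ccl12. The only other Cxcl10 in these 9 was 4 UMIs in 1 cell, so that level came almost wholly from 1 cell. Another of the 9 held 112 UMIs of Ccl12. Immediate early genes had 0 of 12 past 1.5-fold, from Jun at 0.788 to Nr4a1 at 1.48, and inflammatory genes 0 of 12, from Nfkbia at 0.751 to Cd83 at 1.25.

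**Figure D4:**
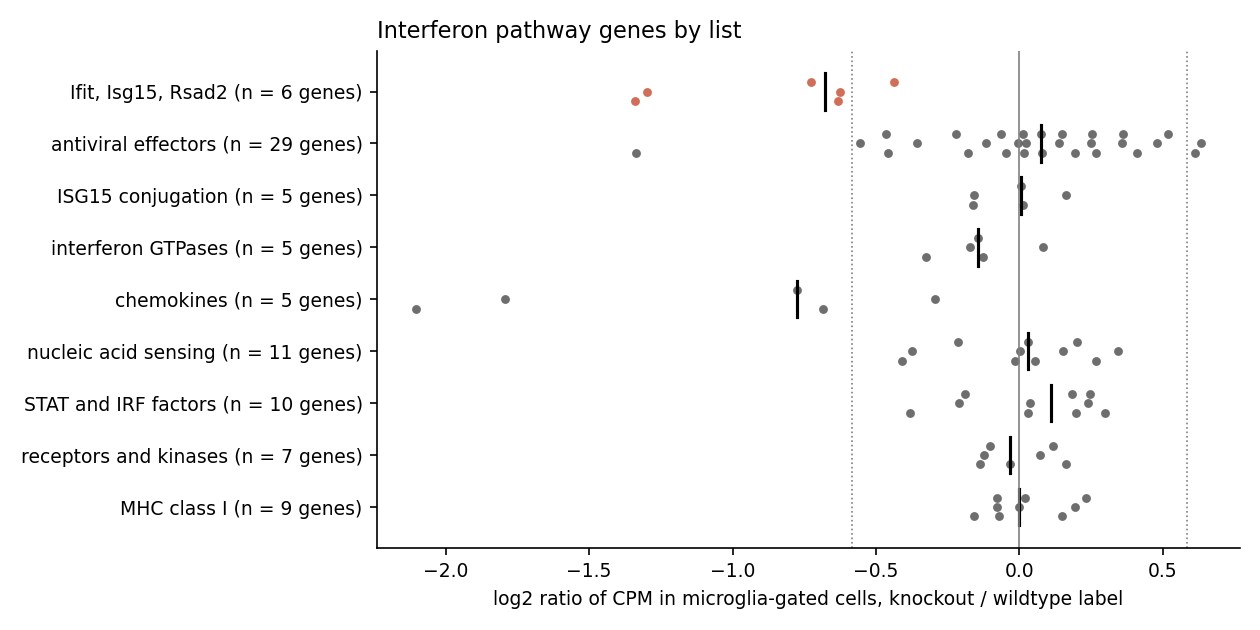
Log2 ratio of CPM in microglia-gated cells, knockout over wildtype label, for each gene at 10 CPM or more (points), by list, with each list's median (black bar) and dotted lines at 1.5-fold. The 6 genes (red) and the chemokines lie to the left, with medians of -0.68 and -0.77; the other lists lie around 0.

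Neighbours of the genes on the chromosomes were few and low. Cmpk2, a nucleotide kinase gene next to Rsad2, had 71 and 22 counts in microglia (7.15 and 3.23 CPM, ratio 0.452, 0.267 to 0.738), and its level in cells with 3 or more of the 6 was 36.2 and 21.8 times that in cells with none. Ifit1bl1, between Ifit3 and Ifit3b, had 5 counts and 0, and Ifit1bl2, next to Ifit1, had 0 in both libraries.

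Outside microglia the direction was not the same in every class. Cells gated as Müller glia or astrocytes, the glia of the neural retina, numbered 43 and 36 with median depths of 4806 and 5793.5 UMIs, and each held Glul, the glutamine synthetase of Müller glia, which the gate did not use. The 6 genes had 66 counts in them (301.8 CPM) under the wildtype label and 135 (684.6 CPM) under the knockout label, a ratio of 2.27 (1.68 to 3.09). Isg15 had 6 and 42 counts in 4 and 9 cells (27.4 and 213.0 CPM, ratio 7.76, 3.28 to 22.3). Ifit3 had 27 and 46 counts in 18 and 17 cells (123.5 and 233.3 CPM, ratio 1.89, 1.15 to 3.16). Ifit1 had 15 and 16 counts, Ifit2 8 and 8, Ifit3b 9 and 17, and Rsad2 1 and 6; the intervals of their ratios included 1.

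Microglial transcripts were scarce in these glia: C1qa stood at 50.3 and 45.6 CPM, against 11294 and 11062 CPM in microglia, while the 6 genes stood at 301.8 and 684.6 CPM, against 395.5 and 240.9 CPM in microglia. At 1000 UMIs any of the 6 was counted in 11 of 42 glia (26.2%, 13.9 to 42.0) and 11 of 32 (34.4%, 18.6 to 53.2), with overlapping intervals. Unthinned, 26 of 43 and 25 of 36 were positive. A single cell held 14 of the 66 counts and 32 of the 135. Leaving out the highest cell of each library gave a log2 ratio of 1.17, and weighting cells equally 0.76, against 1.18.

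Rods and bipolar cells, neurons that serve here as a background class, had 2 counts in 26 cells and 1 count in 20 (median depths of 1653 and 1713 UMIs). Without thinning, any gene was counted in 1 of 26 cells and 1 of 20, against 28.4% and 32.9% of microglia at their greater depth. After thinning none was counted in 25 and 14 cells, which allows shares of up to 12% and 21.4% and so separates neither the single-gene shares of thinned microglia nor their share with any gene (13.1%, 11.8 to 14.5, and 14.5%) from background.

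Neutrophils, blood granulocytes, were few (14 and 12 cells, median depths of 1806 and 2233 UMIs) and held the 6 genes at 1029 and 1034 CPM (27 and 28 counts). Isg15 made up 10 and 18 of these counts, and Ifit2, Ifit3 and Ifit3b had none under the knockout label. The 5 and 3 endothelial cells held 32 and 30 counts. Monocytes held 3 counts in 5 cells and 13 in 16, T or NK cells 0 in 2 and 16 in 12, and B cells 6 in 13 and 0 in 7. So few cells show only that the genes were counted there. Cells with markers of microglia and of another class, mostly border macrophage markers, had a ratio of 0.570 (0.426 to 0.758), as microglia did, and cells that no gate resolved 0.940 (0.677 to 1.30).

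**Figure D5:**
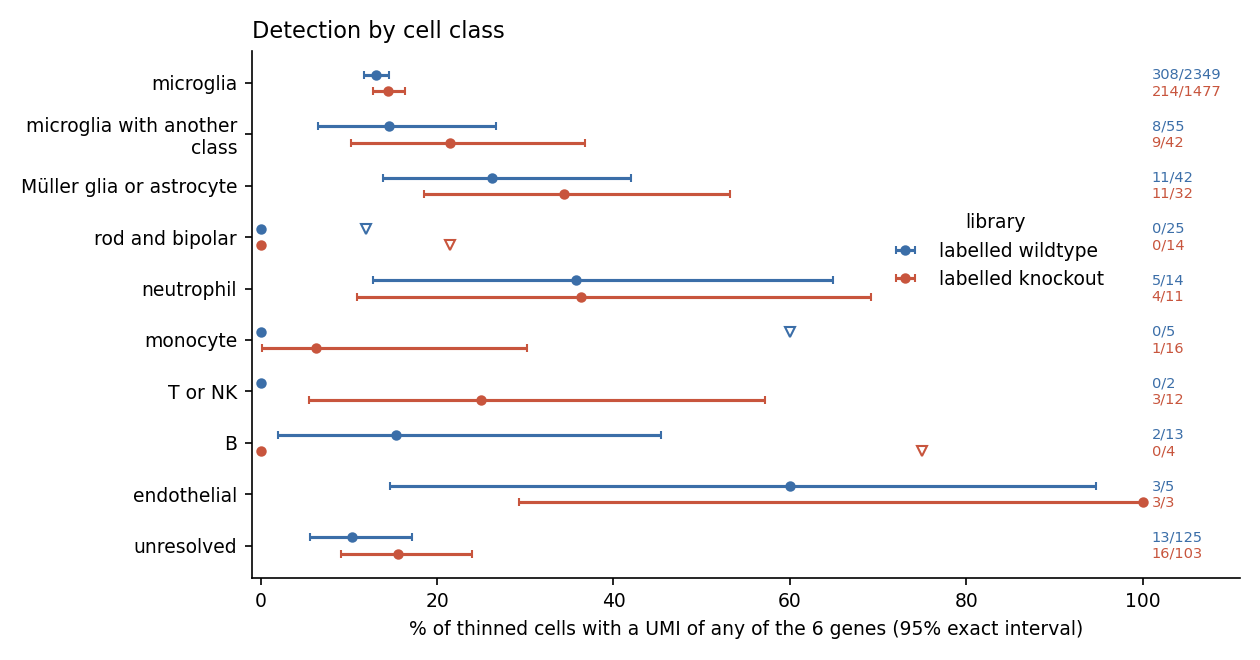
Percentage of cells, thinned to 1000 UMIs, with a UMI of any of the 6 genes, by marker-gated class, under the wildtype label (blue) and the knockout label (red); lines are 95% exact intervals, open triangles the limit that a count of 0 allows (not drawn for 2 cells), and the numbers at the right give positive and all cells. Microglia lie at 13.1% and 14.5%, and rods and bipolar cells at 0.

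The make-up of the summed counts in microglia also differed. Ifit2 made up 17.7% and 11.8% of them and Rsad2 8.07% and 5.24%, while Isg15 made up 29.9% and 36.3% and Ifit3 31.4% and 33.4%. Ifit1 (6.04% and 6.40%) and Ifit3b (6.88% and 6.83%) kept nearly the same part. Ifit2 kept a lower level under the knockout label in all 12 alternatives (log2 ratio -1.51 to -0.37).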

How the data were processed

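Transcripts were counted by droplet 3′ single-cell RNA sequencing (10x Chromium, per the labels' protocols) in 1 library per label. The authors deposited 1 table of raw UMI counts per library, whole numbers per gene and barcode with no normalization; Cell Ranger 3.1 and mm10 are named in the submitters' processing notes, and further settings are not given in the sources used here. Barcodes were kept with at least 500 UMIs, 250 genes and at most 15% mitochondrial counts. Microglia held UMIs of at least 3 of 9 markers and of fewer than 3 markers of each of 10 other classes; a cell with at least 3 microglia markers and 3 of another class was kept apart, and other classes needed 3 of their own markers. Counts were summed per class and given as CPM, per 1000000 counted. Intervals are exact: Poisson for sums, Clopper-Pearson for shares, and the split of the counts for ratios, with a floor of 3 counts. Genes at 10 CPM or more in 1 library were compared, by a fold of 1.5. Thinning drew 1000 UMIs per cell once. Named genes were the 6, Igfbpl1, from each pathway list the highest and lowest ratio and the most abundant gene, the 10 most like genes, and the 5 highest and 5 lowest in cells with 3 or more of the 6 (at 50 CPM or more); a few others were named after their values were seen. The members and lists were chosen with earlier results of these data known. The ratio step was tested on simulated totals with counting error only, so that test does not cover the spread of counts between cells. The thinning step was tested on simulated cells. Python 3.11.15, numpy 2.4.6, scipy 1.17.1 and pandas 2.3.3 were used. Of the listed genes, 2 were not analysed here. A few named genes are not reported here.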

Additional observations from a re-analysis of the deposited data

Results flagged for a closer look

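In cells gated as Müller glia or astrocytes (43 and 36), 3 ratios of knockout over wildtype label lay above 1 where those of microglia lay below 1: 2.27 for the summed 6 genes (0.609 in microglia), 7.76 for Isg15 (0.738) and 1.89 for Ifit3 (0.648). The difference between the classes was not tested, since each label has 1 library.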

How the results depend on the processing

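Of 135 alternative values, 102 stayed within the interval of the main value, or within 1.5-fold for the number of genes. Another 26 moved outside it, and 7 changed the sign of a ratio at least 1.5-fold lower. For the summed log2 ratio in microglia, 7 of 12 stayed, 4 moved and 1 changed sign. The summed log2 ratio in microglia (-0.72) was -0.62 with no gate, -0.44 with equal weight per cell, -0.57 on thinned cells, -0.27 without the top 1% of cells and 0.33 without cells with 3 or more of the genes. Without the top 1%, Ifit1 turned to 0.015 and Ifit3b to 0.28; without cells with 3 or more genes, Ifit1 turned to 1.02, Ifit3 to 0.56, Ifit3b to 1.88, Isg15 to 0.25 and Rsad2 to 0.14, and Ifit2 alone stayed below 0 (-0.37). These 2 alternatives remove cells by the counts of the 6 genes themselves. The thinned shares with any gene (13.1% and 14.5%) were 8.41% and 8.33% at 500 UMIs, 18.7% and 22.2% at 2000, and 28.4% and 32.9% without thinning, as depth sets them. The top 1% of cells (43.0% and 22.3% of counts) held 36.4% and 25.7% on thinned cells, and the top 5% held 77.1% and 52.7%. Genes past 1.5-fold numbered 241, 1956 with no minimum level and 42 at 50 CPM or more. The Müller glia alternatives were chosen after seeing the data. No paired analysis was possible because each group has 1 library and the labels give no replicate numbers. Depth limits single-gene detection, since many positive cells held 1 UMI.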
